A study of Mus musculus with 15 samples.

Results

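Hearts of Nat10 knockout mice that had been given NAT10 carrying the G641E substitution were compared with hearts of mice that kept Nat10, to describe the genes that stayed away from the control level after this rescue. The comparison used 6 of the 15 RNA-seq libraries of the series, 3 from each group, and a gene was tested where it reached 0.5 FPKM (fragments per kilobase of gene, scaled to library size) in 3 or more of the 15 libraries. Of 54532 genes in the table, 15321 were tested, and 274 of them, 1.79%, differed between the G641E-rescued and the control hearts at an adjusted p under 0.05. The test was limma's, a linear model of log2(FPKM + 0.5) over all 15 libraries, with Benjamini-Hochberg adjustment, and differences are given on that log2 scale. These 274 genes are the residual change described here. A gene was said to have stayed abnormal where the untreated knockout differed from the control in the same direction, and to have overshot where the knockout had differed in the opposite direction.

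The control hearts (GFP_ff in the labels) came from Nat10flox/flox mice injected with AAV9-cTnT-GFP, so they carried the floxed alleles and a virus but kept Nat10. The knockout hearts (GFP_KO) came from Nat10-CKO mice given the same GFP virus. The wild-type rescue hearts (WT_KO) came from Nat10-CKO mice given AAV9-cTnT-NAT10, and the G641E-rescued hearts (G641E_KO) from Nat10-CKO mice given AAV9-cTnT-NAT10G641E. The 3 hearts of each group were separate animals, injected under the skin on day 1 after birth with equal amounts of virus and killed 12 to 14 days later. AAV9 is a viral vector that reaches the heart well, and the cTnT promoter limits the transgene to heart muscle cells, while the RNA came from whole heart tissue. The driver of the Cre recombinase, the species of the NAT10 transgene and the amount of NAT10 protein made from it were not given in the sources used here. The K209A hearts (K209A_KO), also from Nat10-CKO mice, entered only the filter on low values, which sets the genes tested, and the model's estimate of the spread.

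NAT10 is a nucleolar enzyme that acetylates cytidines in ribosomal, transfer and messenger RNA. It binds RNA and transfers the acetyl group through separate regions of the protein, and the glycine replaced in G641E lies in the acetyltransferase domain. The study set the RNA binding and acetyltransferase activities of NAT10 against each other, and acetylation itself was not measured in these libraries. A newborn heart normally turns off fetal genes, builds up fatty acid oxidation and matures its ion channels in the first weeks of life. A damaged or strained heart turns the fetal genes back on, and shortage of amino acids or faulty protein synthesis raises the targets of the transcription factor ATF4.

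The mouse codon at the position that the substitution names lies in exon 19 of transcript Nat10-201, on the minus strand of chromosome 2 at 103731412 to 103731414 (GRCm38), and encodes glycine. The coding sequence around it, read from the reference transcript across the junction of exons 18 and 19, is shown because it places the change that separates the rescue vectors; the capitals mark the codon. The position was counted on the mouse transcript, and at the position that K209A names this transcript does not encode lysine, so the numbering of the vectors may follow another species or isoform.
Nat10 glycine codon: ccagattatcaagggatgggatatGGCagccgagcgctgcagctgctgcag

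The libraries held 13218352 to 15912700 reads in genes, and the median tested gene had 233 reads in a library. Nat10 itself, counted over the whole gene, was at 4.14, 3.87 and 4.28 FPKM in the control hearts, at 3.47, 3.43 and 3.53 in the knockout hearts, at 2.89, 2.05 and 2.92 in the wild-type rescue hearts and at 2.58, 2.29 and 2.20 in the G641E-rescued hearts. All libraries of these 3 Nat10-CKO groups lay below the controls, and the rescued groups overlapped each other and lay below the knockout. The difference of G641E from control was -0.69 ± 0.11 (log2, SE; limma, adjusted p = 0.0086), while that of the knockout did not pass the test (-0.21, adjusted p = 0.165). The wild-type rescue differed from control by -0.57 (adjusted p = 0.0202). A count over the whole gene in whole heart does not check the deletion, and the transgene has no entry of its own in the table. The markers of heart muscle cells summed to 10090 to 11770 FPKM in the control hearts, 8471 to 9729 in the G641E hearts and 5113 to 5829 in the knockout hearts. Those of fibroblasts (415 to 481 against 442 to 456 FPKM), endothelial cells (305 to 318 against 291 to 312) and macrophages (66.4 to 81.4 against 61.3 to 129.9) overlapped between control and G641E hearts. The 6 markers of smooth muscle cells and pericytes summed to 549.6 to 694 FPKM in the control hearts, 318 to 425 in the knockout, 471 to 660 after wild-type rescue and 739 to 808 after G641E, so that all G641E hearts lay above all controls; none of the 6 was called, and their part in the results was not tested. A wider list of 13 tested smooth muscle and pericyte genes shared this rise in its sum but not in its median. The sum was 775.8 to 933.6 FPKM in control, 513.3 to 609.6 in the knockout and 939.8 to 1001 after G641E. Its median log2 difference from control was -0.09 after G641E, with 1 gene called lower and 0 higher. Its library medians ran from -0.14 to -0.02 after G641E and from -0.06 to 0.14 in control. Markers of lung, adipose tissue, liver and thymus were at or near 0. In whole tissue, fewer cells of a type and less RNA per cell cannot be told apart. Libraries GFP_KO1, WT_KO2 and G641E_KO2 lay together apart from their groups on the second principal component (9.95% of the variance), and Xist was high in GFP_ff1, GFP_KO1, GFP_KO2 and WT_KO2 and low in all 3 G641E libraries. Counts without these libraries are given beside the main gene lists. Ddx3y, a gene of the Y chromosome, was at 0, 15.63 and 13.7 FPKM in the control hearts and 13.95, 15.84 and 14.23 after G641E. By these 2 genes the controls held both sexes and the G641E group males only, so sex was partly confounded with the comparison. The labels give no sex.

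G641E left a small residue of a large change. The untreated knockout differed from control in 6212 genes (40.5% of those tested; 3032 higher, 19.8%, and 3180 lower, 20.8%). After G641E, 274 genes differed, of which 96 were higher (0.627%) and 178 lower (1.16%), and 5957 of the 6212 knockout genes were no longer called against control. Genes called higher in the knockout had a median log2 difference from control of 0.67 in the knockout and 0.14 after G641E, and genes called lower went from -0.68 to -0.21; over all tested genes the G641E median was -0.01. Both comparisons share the 3 control libraries. Against the knockout itself, 4793 genes differed after G641E (31.3%; 2352 higher, 15.4%, and 2441 lower, 15.9%). Of the 274 genes, 255 had stayed abnormal, 86 high and 169 low, and 19 were not called in the knockout. Some of the lower genes, named under other observations, passed the filter on low values only through the control libraries.

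No gene overshot in the model of all 15 libraries: none of the 274 was called in the opposite direction in the knockout (limma; 33 genes had an unadjusted p under 0.05 in the opposite direction, against 1695 in the same direction). The number that overshot was 23 without GFP_KO1, 3 without GFP_KO3, 1 without G641E_KO1 or WT_KO1, 5 without the 3 libraries that lay apart and 3 without the 4 with high Xist. Of the 255 genes that stayed abnormal, 170 had moved toward the control level from the knockout, 80 did not differ from the knockout by the test, and 5 lay farther from control than the knockout. In every one of the 274 genes the 3 G641E libraries did not overlap the 3 controls, as was true of 26.9% of all tested genes. The change was at least 2-fold in 81 genes, 42 up and 39 down. The 96 higher genes had a median log2 difference of 0.89 after G641E and 1.30 in the knockout, and the 178 lower genes one of -0.62 and -1.32. The genes just inside the threshold were Bcl2l11, an inducer of cell death (-0.70, adjusted p = 0.0489), Ltbp1 and Mapk4, and the first outside it was Atp2a2, the calcium pump of the sarcoplasmic reticulum (-0.47, adjusted p = 0.05001). Without the 3 libraries that lay apart, 184 genes were called (107 higher and 77 lower), and without the 4 with high Xist 160 (87 and 73). Leaving out single libraries of the compared groups gave 70 (GFP_ff1), 120 (GFP_ff2), 116 (GFP_ff3), 165 (G641E_KO1), 96 (G641E_KO2) and 95 (G641E_KO3) called genes, and leaving out GFP_KO1, a knockout library that enters only the estimate of the spread, gave 579, all 274 among them. With each library divided by its own reads in genes, the split turned to 153 higher and 81 lower, and with mitochondrial genes left out of the total to 155 and 93.

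**Figure D1:**
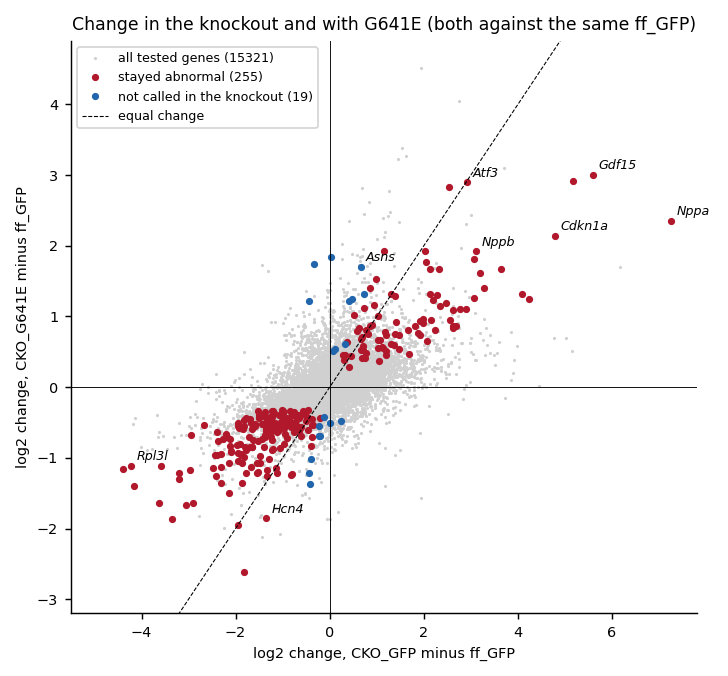
Log2 difference from control of every tested gene in the untreated knockout (horizontal axis) and after G641E (vertical axis), both on the log2(FPKM + 0.5) scale. In the plots, ff_GFP, CKO_GFP, CKO_NAT10 and CKO_G641E stand for the control, knockout, wild-type rescue and G641E-rescued hearts; the dashed line marks equal change. The 255 genes that stayed abnormal and the 19 not called in the knockout are coloured, and no called gene has opposite signs on the axes while called in both.

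Wild-type NAT10 left a residue as well. Against control, 378 genes differed after wild-type rescue (2.47%; 121 higher, 0.79%, and 257 lower, 1.68%), and 154 genes were called after both rescues, 56.2% of the G641E genes and 40.7% of the wild-type genes. The 378 became 92 without GFP_ff1, 149 without GFP_ff2, 167 without GFP_ff3, 109 without WT_KO1, 214 without WT_KO2, 719 without GFP_KO1, 207 with only the compared groups in the model, 347 without the 3 libraries that lay apart and 137 without the 4 with high Xist. These 2 comparisons share the control libraries, so the overlap is a description. The 274 genes as chosen here had smaller medians after wild-type rescue (0.56 for the higher and -0.54 for the lower genes); the choice rests on G641E. Tested directly, G641E and wild-type rescue differed in 8 genes (0.0522%; limma, 1031 genes at an unadjusted p under 0.05), and 4 of these, Atf3, Tlr4, Filip1 and Eda2r, belonged to the 274. Of the 8, Mir320 and Gm44462 passed the filter on low values only through the wild-type rescue libraries, which left 6 whose direction the filter did not fix. The count was 0 without any one G641E library and 0 with only the compared groups in the model. It was 3 without WT_KO1, 1 without WT_KO2, 2 without WT_KO3, 27 without GFP_KO1, 13 without GFP_KO2, 4 without the 3 libraries that lay apart and 5 without the 4 with high Xist. Every difference between the rescues called for single genes in the text was thus lost without any one G641E library.

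Of 23 fetal and stress genes of heart muscle, 4 rose after G641E (Nppb, Ankrd1, Nppa and Acta1) and none fell, with a list median of 0.49 against -0.01 for all genes. In the knockout 16 rose and 3 fell (median 1.18), and after wild-type rescue 4 rose and 1 fell (median 0.01). Nppb (chromosome 4, 147985788 to 147987205, GRCm38), which encodes brain natriuretic peptide, a hormone released by stretched heart muscle, was at 143, 151 and 159 FPKM in the control hearts and at 786, 485 and 492 after G641E. The knockout hearts stood at 1382, 1720 and 951 FPKM and the wild-type rescue hearts at 313, 299 and 487. All 3 G641E libraries lay above every control and below every knockout library, and their range touched that of the wild-type rescue. The difference from control was 1.92 ± 0.23 (log2, SE; limma, adjusted p = 0.00209), a 3.79-fold rise, and that from the wild-type rescue did not pass the test (0.68, adjusted p = 0.56).

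Nppa, its neighbour on chromosome 4 (148000722 to 148002079), which encodes atrial natriuretic peptide and is silenced in the ventricle after birth, was at 26.0, 17.5 and 18.5 FPKM in the control hearts and at 138, 77.6 and 111 after G641E. It had reached 1897, 4164 and 4136 FPKM in the knockout hearts and stood at 515, 126 and 268 after wild-type rescue. The G641E hearts were above control in all 3 libraries and far below the knockout, and the lowest wild-type rescue library lay among them. The rise was 2.35 ± 0.44 (adjusted p = 0.0183), against 7.26 in the knockout and 3.64 after wild-type rescue. The call was lost without G641E_KO1, without G641E_KO3 or without any single control library (2.16 to 2.53). Ankrd1, a stretch-sensitive protein of the sarcomere and nucleus, was at 289, 256 and 276 FPKM in control and 1398, 782 and 819.7 after G641E, a rise of 1.82 ± 0.22 (adjusted p = 0.00209). The wild-type rescue hearts held 1162, 668 and 826 FPKM of it and overlapped the G641E hearts.

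Acta1, skeletal alpha-actin, which the fetal heart expresses, was at the knockout level. It was at 28.6, 77.0 and 83.0 FPKM in control, 215, 308 and 187 in the knockout and 299, 141 and 242 after G641E. The G641E and knockout hearts overlapped and both lay above control. The wild-type rescue hearts, at 2501 to 6559 reads, also lay above control (607 to 1794) and overlapped the G641E hearts (3078 to 6373). The difference of G641E from control was 1.92 ± 0.41 (adjusted p = 0.034) and that from the knockout -0.09 (adjusted p = 0.889). The wild-type rescue differed from control by 1.755, so a high Acta1 was not particular to G641E. The call against control was lost without GFP_ff1, GFP_ff2, G641E_KO1 or G641E_KO3 (1.44 to 2.14) and the whole list's count was 2 without any one of these libraries and 7 without GFP_KO1; it was 6 without the 3 libraries that lay apart and 6 without the 4 with high Xist. Other members of the panel did not pass the test: Myh7, the fetal myosin heavy chain, differed from control by -0.07 (adjusted p = 0.962) and Myh6, the adult form, by -0.32 (adjusted p = 0.319). Among the 4 markers used to check for atrial tissue, 3 of which reached the filter level, Nppa alone was called. Of a wider list of 8 tested atrial genes 2 were called higher and 0 lower after G641E (median 0.57). In 5 of the 8 all G641E libraries lay above all controls and in 2 all lay below. Over all 15321 tested genes, all 3 lay above in 1756, 11.5%, and below in 2365. After wild-type rescue 3 of the 8 were called higher and 2 lower.

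**Figure D2:**
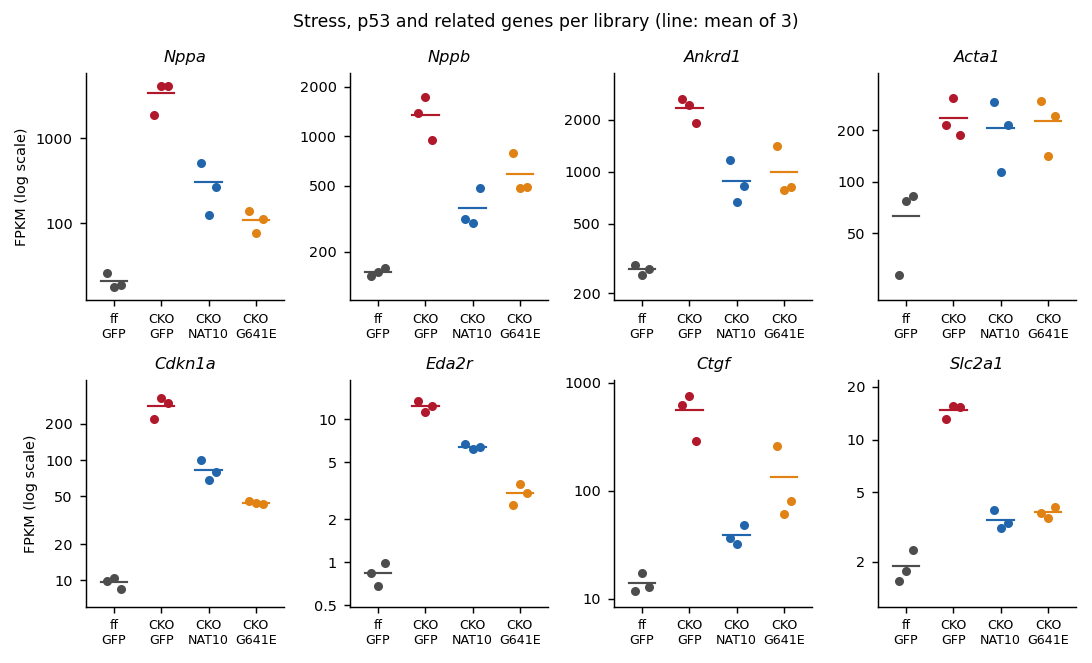
FPKM on a log axis of strain genes (Nppa, Nppb, Ankrd1, Acta1), p53 targets (Cdkn1a, Eda2r), Ctgf and Slc2a1 in each library of the control, knockout, wild-type rescue and G641E-rescued hearts; each point is 1 library. The G641E points lie above all control points in each panel, and for Acta1 they overlap the knockout points.

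Part of the list of ATF4 and amino acid response genes rose after G641E, Atf3 among them. The called members include Gdf15, counted again among the p53 targets, and Atf3, counted again among the immediate early genes. Of 28 tested members 8 rose after G641E and none fell, with a list median of 0.38; 18 had risen and 2 fallen in the knockout (median 0.83), and 2 rose after wild-type rescue (median 0.13). Atf3 (chromosome 1, 191170296 to 191218039, GRCm38), a stress-induced transcription factor, was at 1.95, 1.70 and 1.62 FPKM in control and at 20.5, 13.2 and 15.9 after G641E. The knockout held 18.8, 32.3 and 7.30 FPKM and the wild-type rescue 2.005, 3.62 and 2.47. The G641E hearts thus overlapped the knockout and lay above all control and wild-type rescue hearts. Atf3 differed from control by 2.90 ± 0.38 (adjusted p = 0.00295) and from the knockout by -0.02 (adjusted p = 0.975). It differed from the wild-type rescue by 2.42 (adjusted p = 0.04997), a call that held in 5 of 24 other settings. Of the 28 members, Atf3 was the only 1 called between the rescues.

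Enzymes of serine and one-carbon synthesis and a carrier of amino acids were among the called members. Phgdh, which makes the first step from glycolysis to serine, was at 0.700, 0.901 and 0.686 FPKM in control (24 to 30 reads) and 3.56, 2.98 and 2.88 after G641E (105 to 123 reads). It rose by 1.53 ± 0.23 (adjusted p = 0.00551), against 0.98 in the knockout and 0.24, not called, after wild-type rescue. Mthfd2, the mitochondrial folate enzyme, rose from 0.935, 1.73 and 1.12 to 7.97, 5.97 and 4.63 FPKM, by 1.92 ± 0.32 (adjusted p = 0.0094). In the knockout only GFP_KO1 was as high, at 6.84 FPKM, with 2.33 and 2.22 in the others. Psat1, the next enzyme of serine synthesis, rose by 1.01 ± 0.19 (adjusted p = 0.0183). Slc7a5, a carrier of large neutral amino acids, rose from 3.13, 1.57 and 2.91 to 7.63, 6.11 and 5.71 FPKM (1.23 ± 0.20, adjusted p = 0.00782) and had reached 12.5, 16.2 and 10.8 in the knockout.

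Asns, asparagine synthetase, a standard ATF4 target, was called after G641E and not in the knockout. It was at 0.927, 1.91 and 1.17 FPKM in control, 5.53, 1.56 and 1.32 in the knockout, 1.68, 2.05 and 1.16 after wild-type rescue and 5.13, 6.06 and 4.89 after G641E. The 3 G641E hearts were alike, while of the knockout hearts GFP_KO1 alone was high. The rise over control was 1.71 ± 0.35 (adjusted p = 0.0293) and that over the knockout 1.05 (adjusted p = 0.0389). The call was lost without any single G641E library, GFP_ff1 or GFP_ff3 (1.54 to 1.76). The list's count ran from 3, without GFP_ff1, to 13, without GFP_KO1; it was 4 without G641E_KO1 or G641E_KO2, 5 without GFP_ff3, 9 without the 3 libraries that lay apart and 10 without those with high Xist. Ppp1r15a, which reverses the translation block of the stress response, also rose (0.87, adjusted p = 0.0455). Trib3 (1.14, adjusted p = 0.0593), Atf4 itself (0.35, adjusted p = 0.0583), Ddit3 (0.63, adjusted p = 0.131) and Chac1 (1.05, adjusted p = 0.344) did not pass the test.

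Among 20 aminoacyl-tRNA synthetases, which load amino acids onto transfer RNA and many of which ATF4 controls, 2 rose, Gars and Nars, and none fell (median 0.15; 13 rose and 1 fell in the knockout, none passed after wild-type rescue); 1 was called without the 3 libraries that lay apart and 1 without the 4 with high Xist. Gars, the glycine enzyme, went from 26.6, 24.7 and 25.1 to 34.5, 33.7 and 33.8 FPKM, a narrow shift of 0.41 ± 0.07 (adjusted p = 0.00956) without overlap. Between the rescues 0 of the 20 synthetases were called. Shmt1, the cytosolic serine and glycine enzyme, lay farther from control than the knockout did. It was at 1.53, 1.92 and 1.996 FPKM in control, 2.58, 3.15 and 2.69 in the knockout and 4.15, 4.27 and 4.13 after G641E, and the wild-type rescue was as high at 3.30, 3.74 and 4.74. Mtr, methionine synthase, which takes the folate one-carbon unit to methionine, fell from 11.3, 11.2 and 10.001 to 6.43, 5.98 and 5.56 FPKM (-0.80 ± 0.10, adjusted p = 0.00209). The knockout (4.77, 5.40 and 5.80 FPKM) and the wild-type rescue (4.89, 5.89 and 4.69) were as low, so that neither form of NAT10 returned Mtr.

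ATF4 acts at composite elements that can be written TGATGNAA, with N for any base. The window from 250 bases before to 50 bases after the start (RefSeq, GRCm38.p6) is shown for Asns and Atf3, the members of the list called after G641E whose window held these letters on either strand; capitals mark the match.
Asns, chr6:7693160-7693459, minus strand: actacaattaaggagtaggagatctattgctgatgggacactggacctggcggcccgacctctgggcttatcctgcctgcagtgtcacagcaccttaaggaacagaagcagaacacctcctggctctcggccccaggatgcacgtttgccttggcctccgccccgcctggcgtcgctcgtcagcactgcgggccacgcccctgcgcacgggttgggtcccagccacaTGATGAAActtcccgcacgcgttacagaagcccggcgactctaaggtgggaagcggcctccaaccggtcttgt
Atf3, chr1:191183284-191183583, minus strand, match on the opposite strand: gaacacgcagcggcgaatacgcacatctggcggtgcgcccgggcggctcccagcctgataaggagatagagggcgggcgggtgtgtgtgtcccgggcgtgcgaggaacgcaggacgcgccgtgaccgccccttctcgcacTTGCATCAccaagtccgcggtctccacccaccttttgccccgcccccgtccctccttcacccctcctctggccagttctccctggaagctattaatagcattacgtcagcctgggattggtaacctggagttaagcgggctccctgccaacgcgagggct
The match began 23 bases before the start in Asns and 110 bases before it in Atf3. Of the list's 28 tested members 25 had a promoter in the table, and 8 of these, 32%, held a match, against 2.71% of all tested genes with a promoter. It was in 2 of 7 called members (28.6%) and in 6 of 18 members that were not called (33.3%), and in 4.29% of all called higher genes and 0.752% of the called lower genes. A match is a run of letters and no record of binding.

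**Figure D3:**
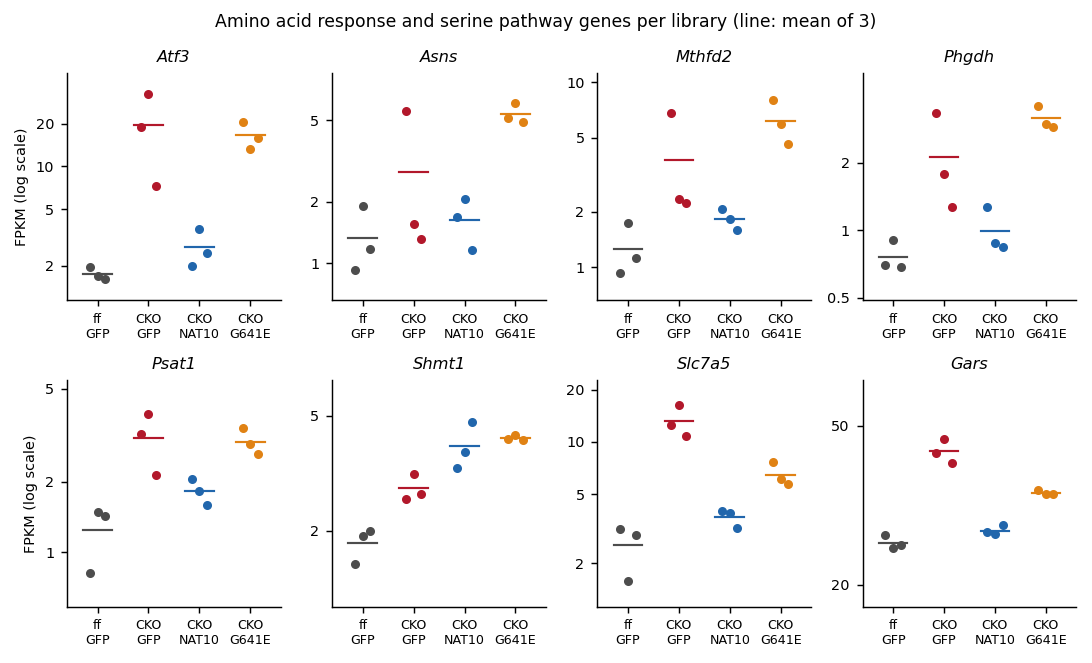
FPKM on a log axis of Atf3, Asns, Mthfd2, Phgdh, Psat1, Shmt1, Slc7a5 and Gars in each library of the 4 groups; each point is 1 library. For all of these except Shmt1 the 3 G641E points lie above all control and all wild-type rescue points. For Shmt1 the 2 rescued groups overlap. Between the rescues, Atf3 alone of these genes was called.

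Targets of p53, the transcription factor of the response to DNA damage and nucleolar stress, were partly returned. Of 33 tested targets 8 rose after G641E and none fell (median 0.35), 27 had risen in the knockout (median 1.42), and 17 rose after wild-type rescue (median 0.59). Cdkn1a (chromosome 17, 29090976 to 29100727), the cell cycle inhibitor p21, was at 9.97, 10.5 and 8.46 FPKM in control, 221, 330.5 and 298 in the knockout, 100.7, 68.5 and 79.7 after wild-type rescue and 45.3, 44.0 and 43.2 after G641E. No library of any of these groups overlapped another group, and G641E lay nearest to control. The residual rise was 2.14 ± 0.15 (adjusted p = 4.16e-05), against 3.03 after wild-type rescue; the difference between the rescues did not pass the test (-0.89, adjusted p = 0.0662). Eda2r, a death receptor that p53 induces, was at 0.836, 0.685 and 0.990 FPKM in control, 6.77, 6.20 and 6.41 after wild-type rescue and 2.51, 3.56 and 3.06 after G641E. It rose by 1.40 ± 0.13 (adjusted p = 0.000179) and was lower than after wild-type rescue (-0.98, adjusted p = 0.0192).

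The other called targets were Phlda3, an inhibitor of Akt (1.10, adjusted p = 0.00551), Aen, a nuclease (0.81, adjusted p = 0.0086), Zmat3, an RNA-binding protein (0.74, adjusted p = 0.0093), Bax, an executor of cell death (0.77, adjusted p = 0.0447), Dcxr (1.24, adjusted p = 0.0137) and Gdf15. Mdm2, which degrades p53, did not pass the test (0.27, adjusted p = 0.167), although it had risen by 1.42 in the knockout. Gdf15, a circulating stress signal that both p53 and ATF4 induce, was at 0.391, 0.323 and 0.384 FPKM in control, 126, 35.9 and 15.2 in the knockout and 9.92, 6.29 and 4.24 after G641E. It rose by 3.00 ± 0.55 (adjusted p = 0.0166), a call lost without G641E_KO1, G641E_KO2 or any single control library (2.71 to 3.03). The p53 list's count was 5 without G641E_KO2, GFP_ff1 or GFP_ff2, 11 without GFP_KO1, and 8 without the 3 libraries that lay apart; without the 4 with high Xist 8 were higher and 1 was lower.

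Matrix and signalling genes of injury rose in small number. Of 38 extracellular matrix genes 2 rose, Ctgf and Postn, and none fell (median 0.28; 31 had risen in the knockout and 4 after wild-type rescue). Without any single control, wild-type rescue or G641E library, or without the 3 that lay apart, Ctgf alone was called, and without the 4 with high Xist the count was also 1. Ctgf, a matrix protein induced by stretch, was at 11.8, 17.3 and 12.9 FPKM in control, 624, 756 and 291 in the knockout, 36.9, 32.0 and 48.0 after wild-type rescue and 258, 60.5 and 80.5 after G641E. G641E_KO1 was well above the other G641E libraries, and all 3 lay above control and wild-type rescue. The rise was 2.92 ± 0.45 (adjusted p = 0.00608). Postn, made by activated fibroblasts, went from 27.1, 33.1 and 31.6 to 47.3, 58.1 and 59.6 FPKM (0.83 ± 0.19, adjusted p = 0.0455), and the call was lost without 9 of the single libraries. Tnfrsf12a, the receptor for the cytokine TWEAK, rose from 32.7, 22.3 and 24.2 to 94.6, 61.8 and 100.6 FPKM (1.67 ± 0.27, adjusted p = 0.0086). Abra, an actin-binding activator of serum response factor, rose from 5.35, 4.64 and 4.37 to 22.6, 12.8 and 14.99 FPKM (1.67 ± 0.26, adjusted p = 0.00698), and the wild-type rescue stood at 5.78, 4.05 and 6.41.

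Tlr4, the receptor for bacterial lipopolysaccharide, did not return. It was at 1.47, 1.26 and 1.14 FPKM in control, 4.45, 3.28 and 4.02 in the knockout, 2.04, 2.05 and 2.13 after wild-type rescue and 3.89, 4.13 and 3.85 after G641E. The G641E hearts sat within the knockout range and above the wild-type rescue. The differences were 1.32 ± 0.11 from control (adjusted p = 0.00012), 0.79 from wild-type rescue (adjusted p = 0.0205) and 0.02 from the knockout (adjusted p = 0.908). Slc2a1, the glucose carrier of the fetal heart, was largely returned: it stood at 1.55, 1.77 and 2.33 FPKM in control, 13.1, 15.6 and 15.3 in the knockout and 3.82, 3.54 and 4.12 after G641E (0.87 ± 0.12, adjusted p = 0.00429). The adult carrier Slc2a4 did not pass the test (-0.41, adjusted p = 0.084). Hsp90aa1, an inducible chaperone, rose by 0.74 (adjusted p = 0.00209) and was the single called member of a list of 29 chaperones. That list did not hold Hspa1l (0.79) and Hspa12a (-0.59), which were also called.

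Genes of electrical and receptor function were among those that stayed low. Of 37 calcium handling and ion channel genes 4 fell and none rose (Hcn4 and Kcnh2 among them; median -0.31), against 26 that fell and 2 that rose in the knockout and 7 that fell after wild-type rescue. The count was 1 without G641E_KO2, GFP_ff1 or GFP_ff3, 2 without G641E_KO3, 8 without GFP_KO1, 4 without the 3 libraries that lay apart and 3 without the 4 with high Xist. Hcn4 (chromosome 9, 58823412 to 58863175), the pacemaker channel, was at 4.99, 2.65 and 3.85 FPKM in control, 0.916, 0.988 and 1.62 in the knockout, 1.12, 0.986 and 0.859 after wild-type rescue and 1.07, 0.565 and 0.456 after G641E. The 3 Nat10-CKO groups shown overlapped one another, all below control. Hcn4 fell by 1.85 ± 0.24 (adjusted p = 0.00283) and did not differ from the knockout by the test (-0.49, adjusted p = 0.137). Kcnh2, which carries a repolarizing potassium current, went from 46.4, 36.5 and 47.9 to 22.4, 21.1 and 23.3 FPKM (-0.94 ± 0.16, adjusted p = 0.012), with the knockout at 6.45, 8.05 and 10.9; its call was lost without G641E_KO2, GFP_ff1 or GFP_ff3 (-0.90 to -0.87). Kcnip2, an accessory subunit of the transient outward current, had fallen by 4.15 in the knockout and was at 37.3, 32.4 and 31.9 FPKM after G641E against 36.8, 49.9 and 52.3 in control, a difference that did not pass the test (-0.43, adjusted p = 0.675).

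Of 26 adrenergic and receptor signalling genes 3 fell and none rose (median -0.17, which was -0.08 with each library divided by its own reads in genes). Adra1b, the alpha-1B adrenergic receptor, was at 29.5, 26.6 and 28.04 FPKM in control, 5.05, 4.96 and 3.97 in the knockout, 12.3, 13.1 and 12.9 after wild-type rescue and 12.5, 11.6 and 13.3 after G641E. Both rescues stopped at the same level, between the knockout and control. The fall was 1.14 on the log2 scale with an SE of 0.10 (adjusted p = 0.00012), and the rescues differed by -0.03 (adjusted p = 0.999). Nr3c2, the mineralocorticoid receptor (-0.85, adjusted p = 0.0197), and Agtr1a, an angiotensin receptor (-0.81, adjusted p = 0.0381), were the others, and Adra1b alone was called without G641E_KO2, G641E_KO3, GFP_ff1, GFP_ff3 or the 3 libraries that lay apart; the count was also 1 without the 4 with high Xist. Ghr, the growth hormone receptor, fell from 18.3, 18.9 and 17.6 to 11.4, 10.7 and 10.99 FPKM (-0.70, adjusted p = 0.00551).

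Rpl3l, the striated muscle form of a ribosomal protein that replaces Rpl3 after birth, was at 45.6, 57.2 and 63.7 FPKM in control, 3.22, 2.09 and 2.24 in the knockout, 12.9, 13.7 and 21.6 after wild-type rescue and 29.1, 22.4 and 24.6 after G641E. The groups did not overlap, and G641E lay nearest to control. The residual fall was -1.11 ± 0.19 (adjusted p = 0.0128), against -4.22 in the knockout and -1.78 after wild-type rescue, and was not called without G641E_KO2, G641E_KO3, GFP_ff2 or GFP_ff3 (-1.09 to -1.003). The difference between the rescues did not pass the test (0.67, adjusted p = 0.4). Cmya5, a protein of the muscle cell that anchors signalling enzymes, was the single called member of 25 sarcomere genes; it was at 28.1, 24.4 and 27.5 FPKM in control and 17.9, 15.6 and 15.1 after G641E (-0.70 ± 0.11, adjusted p = 0.0068). Hrc, a calcium-binding protein of the sarcoplasmic reticulum, had fallen by 4.19 in the knockout and did not pass the test after G641E (-0.53, adjusted p = 0.531). Scn4a, the skeletal muscle sodium channel, fell by 0.96 (adjusted p = 0.00436), and Tnni2, a fast skeletal troponin, by 1.35 (adjusted p = 0.0431).

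The other large falls were of genes with varied roles. Gal3st3, which adds sulfate to galactose on sugar chains, went from 13.7, 14.0 and 14.2 FPKM in control to 6.19, 5.71 and 3.43 after G641E (-1.40 ± 0.20, adjusted p = 0.00429) and had been at 0.338, 0.247 and 0.331 in the knockout. Pnpla3, a lipid droplet hydrolase, went from 6.98, 5.93 and 6.20 to 2.37, 1.78 and 1.02 FPKM (-1.67 ± 0.23, adjusted p = 0.00429). Wnk2, a kinase that regulates ion transport, went from 21.6, 17.1 and 11.03 to 6.33, 4.85 and 3.56 FPKM (-1.64 ± 0.25, adjusted p = 0.00551). In each of these the wild-type rescue hearts overlapped the G641E hearts. Ube2ql1, a ubiquitin-conjugating enzyme (-1.36, adjusted p = 0.00209), and Foxo6, a forkhead transcription factor (-1.26, adjusted p = 0.00622), fell as well.

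**Figure D4:**
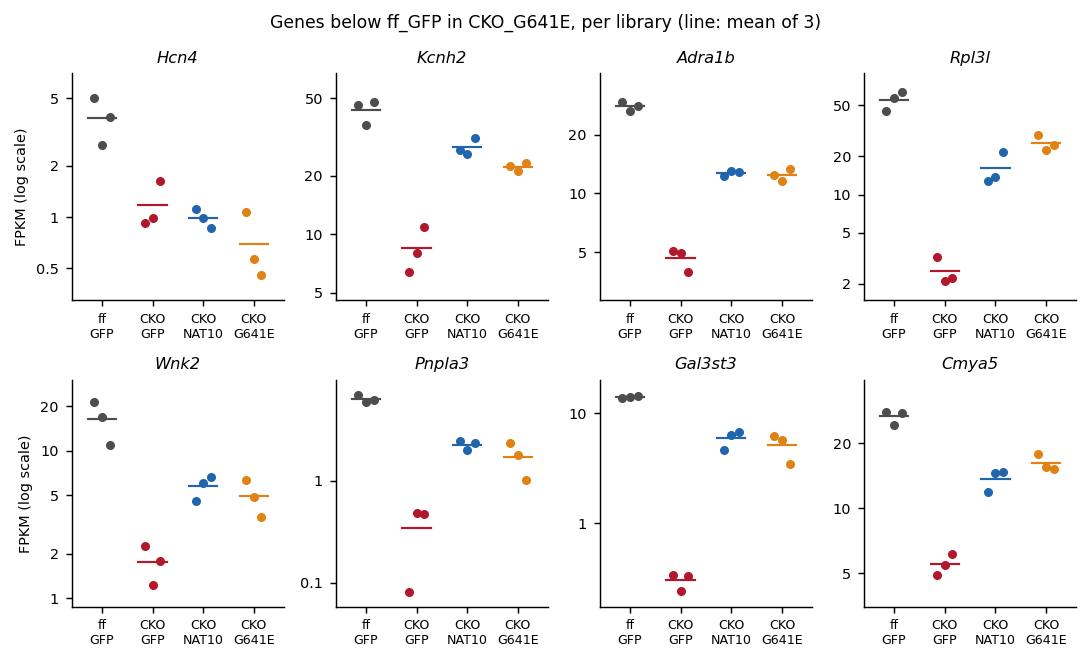
FPKM on a log axis of Hcn4, Kcnh2, Adra1b, Rpl3l, Wnk2, Pnpla3, Gal3st3 and Cmya5 in each library of the 4 groups; each point is 1 library. The G641E points lie below all control points in each panel; for Hcn4 they overlap the knockout, and for the others they lie above it.

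Genes of fatty acid oxidation and of the mitochondria sat slightly below control. Of 35 fatty acid genes 6 fell and none rose (median -0.35; 29 fell in the knockout with a median of -1.20, and 10 after wild-type rescue with a median of -0.37), of 24 genes of the tricarboxylic acid cycle 3 fell (median -0.26), and of 74 respiratory chain genes encoded in the nucleus 6 were lower (median -0.22). Cpt2, a mitochondrial enzyme of fatty acid oxidation, was at 122, 124 and 112 FPKM in control, 30.6, 29.1 and 32.5 in the knockout, 70.3, 76.9 and 90.8 after wild-type rescue and 89.3, 79.8 and 81.0 after G641E. The rescued groups overlapped and lay between the others. Its fall was -0.51 ± 0.09 (adjusted p = 0.013), a call lost without GFP_ff1, GFP_ff2, G641E_KO2 or G641E_KO3 (-0.50 to -0.48). Sdhc, a subunit of succinate dehydrogenase that is not in the respiratory chain list, went from 114, 126 and 115 to 93.2, 88.1 and 88.8 FPKM (-0.39 ± 0.06, adjusted p = 0.00834). Its call held in all 24 other settings. The other called members, among them Acsl1, Etfdh, Slc25a20, Hadh, Dlat and Uqcrc1, fell by 0.32 to 0.46 on the log2 scale.

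Most calls of these small falls depended on how libraries were scaled, while that of Sdhc did not. Reads of mitochondrially encoded genes made up 12.2% to 19.2% of a library. With them left out of the total, 1 fatty acid gene, 1 gene of the cycle and 0 of the listed respiratory chain genes were called. With each library divided by its own reads in genes the counts were again 1, 1 and 0, while the list medians kept their sign (-0.25, -0.17 and -0.12). The fatty acid count was also 0 without G641E_KO2, G641E_KO3, GFP_ff1, GFP_ff2 or the 3 libraries that lay apart, and 11 without GFP_KO1, and the respiratory chain count was 0 without G641E_KO2, GFP_ff1 or GFP_ff2 and 7 without GFP_KO1. The count of the cycle was 1 without G641E_KO2, G641E_KO3, WT_KO2 or any single control library, and 6 without GFP_KO1. Without the 3 libraries that lay apart the cycle and the respiratory chain each had 1 called gene, and without the 4 with high Xist the fatty acid, cycle and respiratory chain counts were 1, 1 and 0. The 13 mitochondrially encoded mRNAs had a median of -0.15 and none was called (limma; 0 at an unadjusted p under 0.05). Of 17 PPAR targets of fasting none was called (5 at an unadjusted p under 0.05, all lower), and Cpt1b, the entry enzyme of muscle fatty acid oxidation, differed by -0.25 (adjusted p = 0.649).

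Several groups that were changed in the knockout held few or no called genes after G641E. Over all tested genes 0.627% were called higher and 1.16% lower, so few calls in a list do not show its return to control. Of 79 cytosolic ribosomal protein genes 74 had risen in the knockout and none was called after G641E (median 0.14; limma, 10 at an unadjusted p under 0.05, all higher). Of 63 ribosome biogenesis genes 49 had risen in the knockout, and after G641E Rrp12, a factor of ribosomal subunit export, alone was called (0.86, adjusted p = 0.0316). Of 28 translation factors 17 had risen and 2 fallen in the knockout and none was called after G641E (6 at an unadjusted p under 0.05), and of 22 immediate early genes 15 had risen (median 1.90) and Atf3 alone remained called (median 0.39; 2 were called without the 3 libraries that lay apart and 2 without the 4 with high Xist). Of 26 enzymes of RNA modification Nat10 alone was called. All 3 G641E libraries lay above all controls in 30 of the 79 ribosomal protein genes and below in 0. The counts were 18 and 4 of the 63 biogenesis genes, 6 and 5 of the 28 translation factors and 12 and 0 of the 22 immediate early genes. Over all 15321 tested genes, all 3 lay above in 1756, 11.5%, and below in 2365.

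The 19 genes not called in the knockout comprised 10 that were higher and 9 that were lower, and 16 of them also differed from the knockout. Pcbd1, a cofactor recycling enzyme and transcriptional coactivator, rose from 0.798, 0.823 and 1.04 to 1.85, 3.11 and 3.41 FPKM (1.22, adjusted p = 0.0086) and stood at 2.85, 2.58 and 2.46 after wild-type rescue, on 9 to 44 reads a library in the control and G641E hearts. Gas2l3, a cytoskeletal linker of dividing cells, rose from 0.319, 0.701 and 0.354 to 1.51, 1.76 and 1.95 FPKM (1.24, adjusted p = 0.00551). Dapk1, a death-associated kinase (-0.69, adjusted p = 0.0318), and Vav2, an exchange factor for small GTPases (-0.56, adjusted p = 0.0274), were lower.

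The 5 genes farther from control than the knockout were Shmt1, Filip1, Cacna1g, Ak4 and Rftn1. Filip1, an interactor of the actin crosslinker filamin A, was at 18.5, 14.7 and 15.8 FPKM in control, 22.6, 21.2 and 19.97 in the knockout, 17.8, 14.6 and 15.6 after wild-type rescue and 26.1, 24.4 and 26.1 after G641E. The wild-type rescue overlapped control, while the G641E hearts lay above all other groups. Filip1 differed by 0.64 ± 0.09 from control (adjusted p = 0.005), 0.26 from the knockout (adjusted p = 0.0454) and 0.67 from the wild-type rescue (adjusted p = 0.0194). Cacna1g, a T-type calcium channel of the fetal heart and the conduction system, fell from 10.2, 7.11 and 9.34 to 5.34, 3.91 and 5.04 FPKM (-0.83 ± 0.15, adjusted p = 0.013). Its difference from control was -0.39 in the knockout and -0.71 after wild-type rescue. The reads of the wild-type rescue hearts (622 to 907) overlapped those of the G641E hearts (562 to 807), so a low Cacna1g was not particular to G641E. Ak4, a mitochondrial adenylate kinase, fell from 7.49, 6.77 and 6.32 to 4.40, 3.52 and 4.08 FPKM (-0.71 ± 0.09, adjusted p = 0.00295). Its difference was -0.37 in the knockout and -0.33 after wild-type rescue. Rftn1, a lipid raft protein, differed by -0.43 (adjusted p = 0.00947), against -0.20 in the knockout and -0.12 after wild-type rescue.

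The firmness of the single calls varied. Of the 274 genes, 56 were called in the same direction in all 24 other settings, among them Cdkn1a, Eda2r, Phlda3, Atf3, Phgdh, Shmt1, Gars, Nppb, Ankrd1, Ctgf, Abra, Tlr4, Filip1, Hcn4, Adra1b, Mtr, Ghr, Cmya5, Wnk2, Pnpla3 and Sdhc. Removing GFP_ff1 ended the calls of Nat10, Mthfd2, Psat1, Pcbd1, Rftn1, Cacna1g and Dcxr, whose differences from control without it or another decisive library were -0.68 for Nat10, 1.78 for Mthfd2, 0.82 to 1.03 for Psat1, 1.07 to 1.17 for Pcbd1, -0.39 for Rftn1, -0.79 to -0.71 for Cacna1g and 1.05 to 1.26 for Dcxr. G641E_KO2 was decisive in the same way for Psat1, Pcbd1, Rftn1, Cacna1g and Dcxr, G641E_KO1 for Psat1, G641E_KO3 for Pcbd1, GFP_ff2 for Dcxr and GFP_ff3 for Cacna1g. The call of Vav2 was lost without G641E_KO2, G641E_KO3, GFP_ff1 or GFP_ff3, and that of Nr3c2 without these or G641E_KO1. Acsl1 and Etfdh lost theirs without G641E_KO2, G641E_KO3, GFP_ff1 or GFP_ff2, and Slc25a20 without any of these or GFP_ff3. Ppp1r15a, Nars, Bax, Rrp12, Dapk1, Hadh, Dlat, Uqcrc1, Agtr1a, Tnni2, Bcl2l11, Ltbp1 and Mapk4, like Postn, lost their calls without any one of 6 to 9 single libraries, always with the sign kept.

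Interferon-stimulated genes and MHC class I genes were spread widely among the G641E libraries. Of 30 interferon-stimulated genes none was called (limma; 9 at an unadjusted p under 0.05, all higher), although 19 had all 3 G641E libraries above all controls, as had 11.5% of all tested genes. Their median over the control mean was 0.98, 2.12 and 0.35 in the 3 G641E libraries, 1.94, -0.37 and -0.62 in the knockout, -0.33, 1.82 and -0.16 after wild-type rescue, and -0.10 to 0.06 in control. The highest library of each Nat10-CKO group named here was one of the 3 that lay apart on the second component. Ifit1, an antiviral RNA-binding protein, was at 1.80, 1.15 and 1.499 FPKM in control and 9.41, 27.7 and 3.98 after G641E (adjusted p = 0.222), and H2-K1, a class I heavy chain, at 27.2, 26.1 and 26.2 and at 135, 237 and 35.9 (adjusted p = 0.169). None of the 14 MHC class I genes was called (7 at an unadjusted p under 0.05). Without the 3 libraries that lay apart 5 interferon-stimulated genes were called higher, and the median was 0.67; without the 4 with high Xist 2 were called higher.

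Cell cycle genes likewise gave a positive median without a call. Of 41 members none passed the test (limma; 10 at an unadjusted p under 0.05, all higher), with a median of 0.65, and the library medians were 0.67, 0.71 and 0.53 after G641E but -0.70, 0.50 and 0.11 in control. The low median of GFP_ff1 carried part of this: without that library the list median was 0.27. Without the 3 libraries that lay apart 1 member was called higher, and without the 4 with high Xist 2 were. Ccnd2, a cyclin of growing heart muscle, was at 14.6, 16.4 and 16.1 FPKM in control and 25.5, 26.5 and 26.7 after G641E (0.72, adjusted p = 0.0635). Markers of endothelial, fibroblast and macrophage cells held 0 called genes among the 6 used for each cell type. In a wider list of 16 fibroblast genes 1 was called higher and 0 lower (median 0.12). Wider lists of 16 endothelial and 20 macrophage and myeloid genes held 0 called genes.

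**Figure D5:**
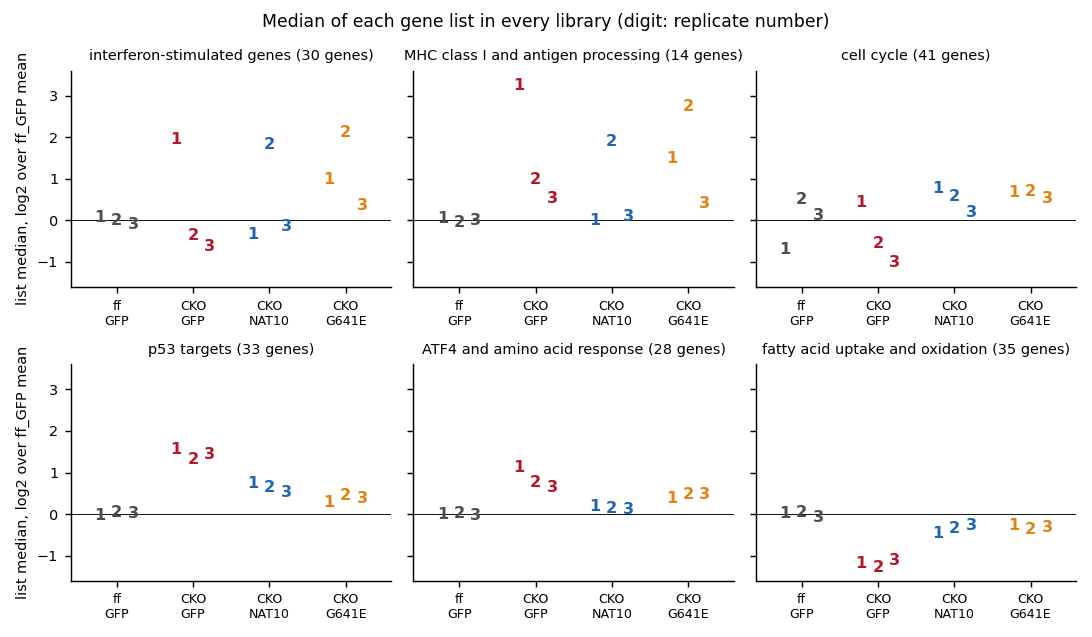
Median over a gene list of the log2 difference from the control mean, for 6 lists, in each library of the 4 groups; the digit is the replicate number. The ATF4 and p53 medians of the 3 G641E libraries lie close together, at 0.37 to 0.48 and 0.29 to 0.44, while the interferon-stimulated medians run from 0.35 to 2.12.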

How the data were processed

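RNA of whole mouse hearts was sequenced as poly-A libraries, 3 animals in each of 5 groups. Per the labels and the submitters' processing notes, the genome build was GRCm38/mm10, the aligner HISAT2 2.0.5 and the read counter featureCounts 1.5.0-p3; CASAVA and DESeq2 1.20.0 are listed without a role. The deposited values used here are FPKM per gene, as the authors made them. Multiplied by length, 100% of the values came to whole reads (within 0.05), which served to give depth (13218352 to 15912700 reads in genes) and to rescale libraries; the authors' library size was 0.908 to 1.13 times the reads in genes. Depth and the 3 hearts a group limit precision, and the strandedness of counting was not given in the sources used here.

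Genes at 0.5 FPKM or more in 3 of 15 libraries were tested on log2(FPKM + 0.5), which understates changes of low genes, with limma 3.58.1 (R 4.3.3; 1 model of 5 groups, variance trend, Benjamini-Hochberg adjustment over 15321 genes, called at 0.05). All adjusted p-values in the text are from this limma fit, and all fold changes are on that scale. The fit was tested on simulated data. The genes and gene lists were chosen with earlier results of these data known. Named genes were Nat10, a fixed panel, the largest called changes, genes called in a second comparison and, from every list, the 4 or fewer genes of lowest adjusted p; others, such as those at the threshold, were chosen after their values were seen. Alternatives changed the pseudocount, filter, scaling, variance trend, groups in the fit, replicate block and single libraries. Some genes that the rule would name are not reported here.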

Additional observations from a re-analysis of the deposited data

Results flagged for a closer look

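The G641E and wild-type rescue, which share the same knockout background, differed in 8 genes by limma's test, and each was picked out because the difference between the rescues was itself tested. Cabcoco1, a calcium-binding coiled-coil protein, was at 7.64, 7.75 and 6.82 FPKM in control, 0.699, 0.591 and 0.848 in the knockout, 3.04, 2.95 and 3.86 after wild-type rescue and 8.90, 7.16 and 6.98 after G641E; the rescues differed by 1.113 (log2, adjusted p = 0.0192), and G641E stood at the control level. Dusp27, a muscle pseudophosphatase, was at 28.1, 26.4 and 29.6 FPKM in control, 20.8, 19.2 and 22.6 after wild-type rescue and 41.1, 32.1 and 39.1 after G641E, a difference of 0.8227 (adjusted p = 0.037). Atf3 (2.422), Tlr4 (0.794) and Filip1 (0.6656) were higher and Eda2r (-0.9849) lower after G641E than after wild-type rescue, with values given above.

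Mir320 (-1.695) and Gm44462 (-1.492) were listed at 0 in every control, knockout and G641E library and had 1 or 2 reads in each wild-type rescue library; they passed the filter on low values only through the wild-type rescue libraries, which fixed the direction of the difference, and the fitted sizes depend on the pseudocount. Of 24 other settings the calls held in 16 for Cabcoco1, 15 for Eda2r, 15 for Filip1, 13 for Tlr4, 7 for Dusp27 and 5 for Atf3, and of 23 settings in 16 for Mir320 and 14 for Gm44462. All 8 calls were lost without any one G641E library.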

How the results depend on the processing

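Of the 274 genes called against control, 24.5% (without GFP_ff1) to 100% (without GFP_KO1) were called again under each alternative. As single libraries were left out, the number called against control ran from 70 to 579, those that stayed abnormal from 67 to 463, those that overshot from 0 to 23 (23 without GFP_KO1), those not called in the knockout from 3 to 93, the difference of G641E from wild-type rescue from 0 to 27, that of G641E from the knockout from 3496 to 5953, that of the knockout from control from 5099 to 6807 and that of the wild-type rescue from control from 92 to 719. With only the compared groups in each fit, 394 genes were called against control, 76 of them not called in the knockout, and the counts were 0 for G641E against wild-type rescue, 2703 for G641E against the knockout and 207 for wild-type rescue against control. G641E and wild-type rescue differed in 5 genes at 1 FPKM in 6 libraries or with mitochondrial genes left out of the total, and in 4 with each library divided by its own reads or a pseudocount of 0.1. A single gene overshot at 1 FPKM in 6 libraries, with no filter, with mitochondrial genes left out or with each library divided by its own reads (1 in each case). The cause of these changes was not tested.

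Replicate numbers did not pair the G641E and control hearts (correlations of deviations 0.015, 0.067 and 0.027); with the replicate block 208 genes were called, 192 of them among the 274. Settings chosen after seeing the data left out the 3 libraries that lay apart (184 called, 152 stayed abnormal, 5 overshot, 4 against wild-type rescue) or the 4 with high Xist (160 called, 127 stayed abnormal, 3 overshot, 30 not called in the knockout, 5 against wild-type rescue and 137 for wild-type rescue against control). No named gene that was called against control changed direction in any setting. For named genes that were not called, a change of direction was not recorded.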

Other observations

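Gm23731, a small nuclear RNA entry of 2, 4 and 1 reads in the control hearts, and Gm15976, an antisense entry of 3, 3 and 5 reads, were listed at 0 in every knockout, wild-type rescue and G641E library. They passed the filter on low values only through the control libraries, which fixed their direction, so their calls are no result. The same held for Clcn1, Slc22a3, Slc46a2 and Cacng6, which had reads elsewhere but reached 0.5 FPKM in the control libraries alone. Other called genes with few reads may share this limit, and all of these genes are included in the counts above. By chromosome, the called share of tested genes ran from 0.605% on the X to 3.1% on chromosome 9 (26 of 839 genes).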
